A study of Mus musculus with 2 samples.

Results

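The 10 genes described here encode sensors of RNA and DNA in the cytosol together with the adaptors and enzymes that act beside them. They were chosen by name, with earlier results of these data known. All 10 were found among the 30491 genes of the deposited table, where the STING gene Tmem173 is listed as Sting1. The cells were fibro/adipogenic progenitors (FAPs), mesenchymal stromal cells of skeletal muscle, freshly sorted from wild-type (WT) mouse muscle and grown as primary cells in medium with serum. One culture condition received 1 µM mouse recombinant Musclin, a secreted muscle peptide, and the other an equal amount of vehicle, each for 24 h, and RNA-seq was made from 1 library per condition. Whether a library stands for 1 culture or a pool is not stated in the labels. With 1 library per group there is no replicate check, no test was run and every interval below covers counting error only. The vehicle library is the table column coded BSA, which no label explains and which was assigned by elimination, so each direction rests on that assignment.

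Foreign or misplaced nucleic acid in the cytosol is detected by a small set of proteins. RIG-I (Ddx58) and MDA5 (Ifih1) bind double-stranded RNA and signal through the mitochondrial adaptor MAVS, whereas DNA sensed by cGAS is relayed by STING, and both routes lead to production of type I interferon. Several of the sensors are themselves interferon-induced genes, and enzymes such as ADAR, TREX1 and SAMHD1 edit or degrade nucleic acids or their precursors and restrain the same pathways.

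The RNA-sensing helicase genes and Zbp1 were higher in the Musclin library, while the adaptor genes, Adar and Samhd1 had smaller ratios. The Trex1 ratio lay between, with a wide counting interval that overlaps those of Ifih1, Adar and Samhd1. Levels are FPKM (sequenced fragments per length of transcript and size of library) summed over the transcripts of a gene. Of the 10 genes, 3 (Zbp1, Ddx58 and Dhx58) were at least 2-fold higher with Musclin, none was 2-fold or more lower and 7 lay between, on the scale of log2(FPKM + 1). Among the 12884 genes at 1 FPKM or more in a library, 1.71% were 2-fold or more higher and 1.52% were 2-fold or more lower. The median log2 ratio of the 10 genes was 0.46, against -0.02 for those 12884 genes, and 8 of the 10 ratios lay above 0. All 10 genes are counted, although Aim2 was under 1 FPKM in both libraries.

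**Figure D1:**
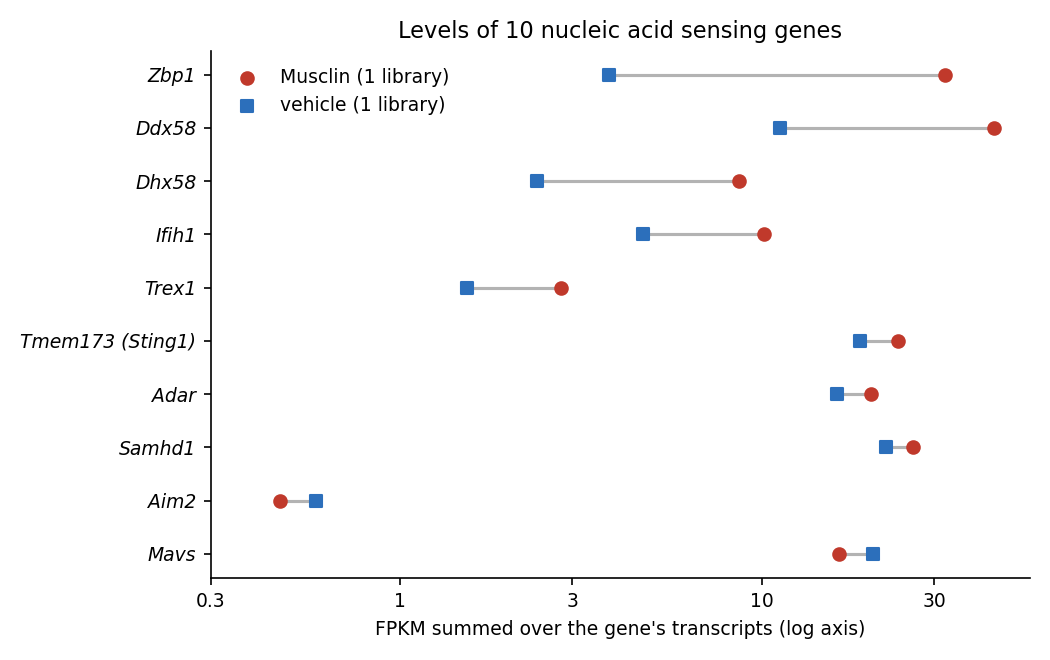
Level of each gene in FPKM (log axis) in the Musclin library (circles) and the vehicle library (squares), ordered by log2 ratio. The gap is widest for Zbp1 (32.1 FPKM under Musclin, 3.79 FPKM under vehicle), and Aim2 is the lowest gene in both libraries.

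The order of the levels differed between the libraries. With vehicle, Samhd1 was the most abundant at 22.1 FPKM, followed by Mavs, Tmem173, Adar, Ddx58, Ifih1, Zbp1, Dhx58, Trex1 and Aim2 at 0.585 FPKM. With Musclin, Ddx58 stood first at 44.0 FPKM and Zbp1 second at 32.1 FPKM, followed by Samhd1, Tmem173, Adar, Mavs, Ifih1, Dhx58, Trex1 and Aim2. Neighbours in these orders often differed little, for example Samhd1 and Mavs with vehicle (a ratio of 1.08 between their FPKM levels) and Samhd1 and Tmem173 with Musclin (1.10), and without replicates no spread is available to separate them.

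**Figure D2:**
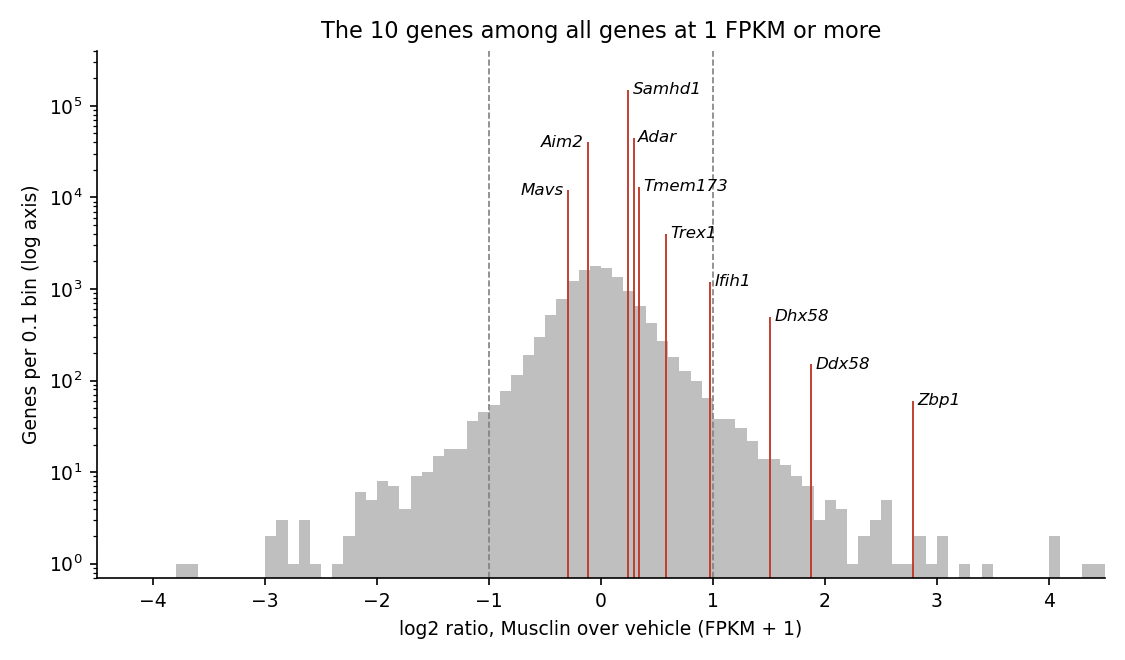
Histogram of the log2 ratio (Musclin over vehicle, FPKM + 1) of the 12884 genes at 1 FPKM or more in a library, with gene numbers on a log axis. Red lines mark the 10 genes and their height has no meaning. Dashed lines stand at 2-fold, and Aim2, which is not among the 12884 genes, is marked for its position.

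Among the RNA sensors, Ddx58, which encodes RIG-I, a helicase that recognises short double-stranded RNA with triphosphate ends, was at 44.0 FPKM under Musclin and 11.2 FPKM under vehicle (ENSMUSG00000040296, chr4:40203773-40239828, GRCm38). Its log2 ratio of 1.88 ranked 37th among the 12884 genes. Its ratio of aligned bases, the sequence assigned to the gene scaled to library size, was 3.57 (95% exact Clopper-Pearson interval 3.32 to 3.85). Dhx58, which encodes LGP2, a related helicase without signalling domains that modulates the other helicases, was at 8.64 FPKM under Musclin and 2.39 FPKM under vehicle (ENSMUSG00000017830, chr11:100694884-100704271). Its log2 ratio was 1.51 and its aligned-base ratio 3.78 (3.07 to 4.69). Ifih1, which encodes MDA5, the sensor of long double-stranded RNA, was at 10.2 FPKM under Musclin and 4.69 FPKM under vehicle (ENSMUSG00000026896, chr2:62595798-62646255). Its aligned-base ratio was 2.17 (1.96 to 2.40), but its log2 ratio of 0.97 stayed just under the 2-fold line because of the added pseudocount. All RNA helicase genes of this family were thus higher in the Musclin library, in the order Ddx58, Dhx58, Ifih1 on the log2 scale, and the intervals of Ddx58 and Dhx58 overlap.

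Zbp1, whose product binds left-handed Z-form RNA and DNA and can engage RIPK3 to start necroptosis, showed the largest log2 ratio of the 10 genes (ENSMUSG00000027514, chr2:173206612-173218923, GRCm38). It was at 32.1 FPKM under Musclin and 3.79 FPKM under vehicle, a log2 ratio of 2.79 with a ratio of aligned bases of 7.24 (95% interval 6.17 to 8.51). It ranked 12th by log2 ratio among the 12884 genes. Of genes with an official symbol and 5 FPKM or more in a library, those with a log2 ratio closest to that of Zbp1 were the acute-phase gene Saa3 (2.81) and the interferon-induced genes Ifit1 (2.84) and Ifit3b (2.67). The likeness is of a single log2 ratio over 2 libraries.

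**Figure D3:**
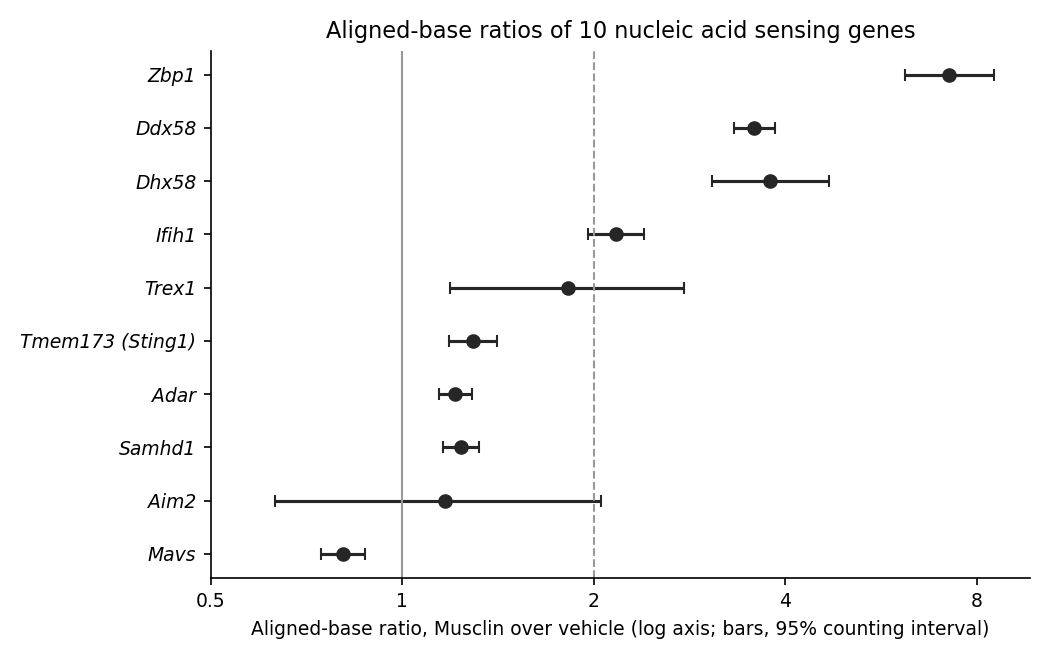
Aligned-base ratio of each gene, Musclin over vehicle (log axis), with 95% counting intervals as bars and lines at 1 and 2. The intervals of Zbp1, Ddx58 and Dhx58 lie wholly above 2, that of Mavs lies below 1 and that of Aim2 spans 1.

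The adaptor genes differed less between the libraries than the helicase genes. Tmem173, which encodes STING, the receptor for the cyclic dinucleotide made by cGAS, was at 23.9 FPKM under Musclin and 18.7 FPKM under vehicle, an aligned-base ratio of 1.29 (95% interval 1.18 to 1.41). Mavs, the adaptor of RIG-I and MDA5, was at 16.4 FPKM under Musclin and 20.4 FPKM under vehicle, an aligned-base ratio of 0.807 (0.745 to 0.875), and it was the 1 gene of the 10 whose interval lay below 1 (ENSMUSG00000037523, chr2:131234063-131248025). Its transcripts went in opposite directions and are described below.

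Aim2, which encodes a DNA sensor that assembles an inflammasome, was at 0.464 FPKM under Musclin and 0.585 FPKM under vehicle, on 27 and 24 fragment equivalents (aligned bases divided by the length of a read pair). The interval of its aligned-base ratio ran from 0.631 to 2.06, so no difference was detectable at this depth. Its coding transcript ENSMUST00000147604 was at 0.346 against 0.329 FPKM. The coding transcript ENSMUST00000166137 was at 0.108 FPKM under Musclin and listed at 0 with vehicle, whereas ENSMUST00000174263, which has no annotated reading frame, was listed at 0 under Musclin and at 0.236 FPKM with vehicle.

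Among the enzymes that edit or degrade nucleic acids or their precursors, Trex1 had the highest ratio. Its wide interval overlaps those of Adar and Samhd1, so the order of these genes is not resolved. Adar, which encodes the enzyme that converts adenosine to inosine in double-stranded RNA, was at 20.0 FPKM under Musclin and 16.2 FPKM under vehicle, an aligned-base ratio of 1.21 (95% interval 1.14 to 1.29; ENSMUSG00000027951, chr3:89715022-89753446). Samhd1, a hydrolase of deoxynucleotides, was at 26.3 FPKM under Musclin and 22.1 FPKM under vehicle, a ratio of 1.24 (1.16 to 1.32). Trex1, a cytosolic DNA exonuclease gene, was at 2.79 FPKM under Musclin and 1.53 FPKM under vehicle, a ratio of 1.82 (1.19 to 2.77), on 66 and 37 fragment equivalents, and this wide interval holds the whole interval of Ifih1. Its coding transcript ENSMUST00000112053 was at 2.19 against 1.36 FPKM and ENSMUST00000061973 at 0.598 against 0.169 FPKM. Every one of the 1147 annotated exon bases of Trex1 also lies in exons of Atrip on the same strand, and Atrip was at 5.28 against 4.84 FPKM, so the division of reads between the pair is uncertain. Over the 10 genes, 9 had a counting interval that excluded 1, as did 57.7% of the 12884 genes. At this depth even small ratios pass such a bound in most genes.

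Transcripts within a gene differed in their ratios, and the estimates below depend on how the authors' processing divided shared reads among overlapping transcripts. In the authors' deposited table, 5 of the 10 genes have a transcript marked significant, and of the 12884 genes 17.8% have one. The marked transcripts of the 10 genes number 7 of 63, with 6 higher and 1 lower with Musclin, and 3.42% of all transcripts are marked.

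**Figure D4:**
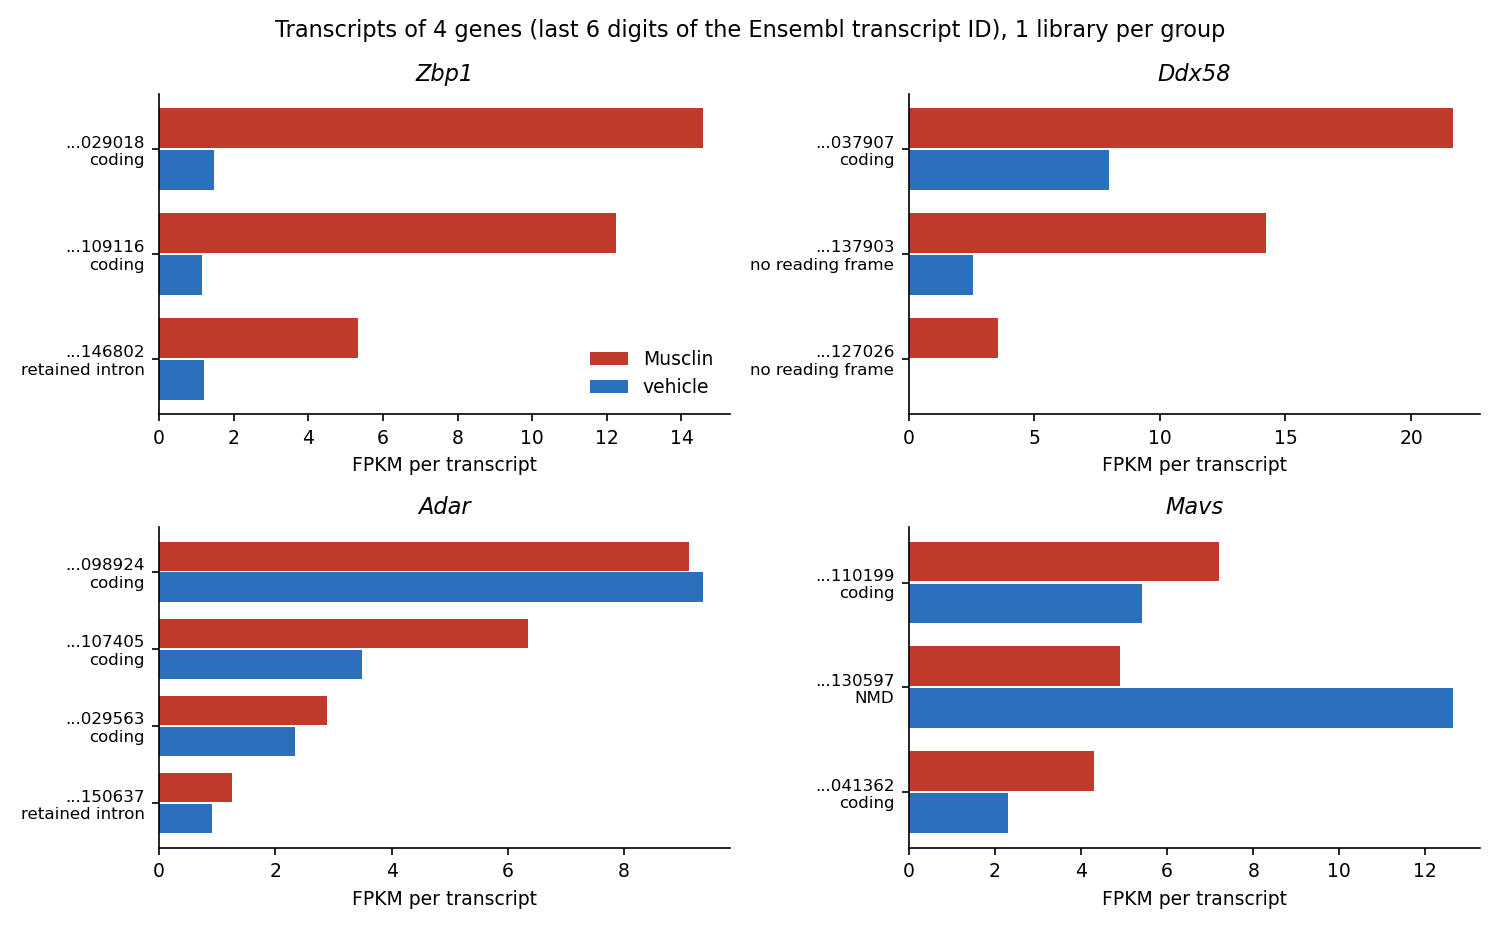
FPKM per transcript for Zbp1, Ddx58, Adar and Mavs in the Musclin (red) and vehicle (blue) library, for transcripts that hold 5% or more of their gene's FPKM in a library or are marked by the authors. The Mavs transcript subject to nonsense-mediated decay (NMD) is lower with Musclin (4.91 against 12.6 FPKM), while both coding Mavs transcripts are higher.

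In Zbp1 all 3 listed transcripts were higher with Musclin. ENSMUST00000029018, which encodes a protein of 411 residues, was at 14.6 FPKM under Musclin and 1.46 FPKM under vehicle, and the authors' deposited table gives it a q-value of 2.3e-42. The short coding transcript ENSMUST00000109116 (187 residues) was at 12.2 against 1.14 FPKM, and the transcript with a retained intron, ENSMUST00000146802, was at 5.32 against 1.19 FPKM. Coding transcripts together held 83.4% of the FPKM of Zbp1 with Musclin and 68.6% with vehicle.

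In Ddx58 the balance went the other way. The full-length coding transcript ENSMUST00000037907 (926 residues) was at 21.7 FPKM under Musclin and 7.98 FPKM under vehicle, a 2.71-fold difference with a q-value of 9.1e-11 in the authors' deposited table. ENSMUST00000137903, a transcript with no annotated reading frame that covers the downstream part of the gene, was at 14.2 against 2.57 FPKM, a 5.54-fold difference with a q-value of 3.3e-27 in the authors' deposited table. Coding transcripts held 52.2% of the FPKM of Ddx58 with Musclin and 71.0% with vehicle. Counted over coding transcripts alone, Ddx58 had a log2 ratio of 1.42, lower than the 1.54 of Dhx58, so their order depends on which transcripts are summed.

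In Dhx58 and Ifih1 1 coding transcript holds most of the gene's FPKM. In Dhx58 it is ENSMUST00000017974 (678 residues), at 7.57 FPKM under Musclin and 1.95 FPKM under vehicle and marked in the authors' deposited table with a q-value of 6.6e-17. The transcripts ENSMUST00000140543 and ENSMUST00000150656 of Dhx58, which have no annotated reading frame, were at 0.400 against 0.212 FPKM and 0.376 against 0.131 FPKM. Exons of the antisense gene Dhx58os overlap 4.31% of the exon bases of Dhx58, and Dhx58os was at 1.71 against 0.553 FPKM. In Ifih1 it is ENSMUST00000028259 (1025 residues), which held 93.9% and 94.0% of the gene's FPKM under Musclin and vehicle. It was at 9.56 against 4.41 FPKM and is marked in the authors' deposited table with a q-value of 8.2e-07.

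Adar has transcripts from separate start sites, which are known to yield a short constitutive form and a long interferon-inducible form whose extra end binds Z-form nucleic acids. ENSMUST00000098924, which begins at the upstream start and encodes 930 residues, was at 9.12 FPKM under Musclin and 9.36 FPKM under vehicle. Its aligned-base ratio of 0.975 had a 95% interval from 0.90 to 1.06, so a difference was not detectable at this depth. ENSMUST00000107405, which begins at the downstream start and encodes the long form of 1178 residues, was at 6.34 against 3.50 FPKM, a ratio of 1.82 (1.62 to 2.04). The authors' deposited table gives it a q-value of 0.00021 and no mark. ENSMUST00000029563, also from the downstream start (1152 residues), was at 2.89 against 2.34 FPKM, and ENSMUST00000150637, which retains an intron, at 1.26 against 0.901 FPKM. The 4 coding transcripts from the downstream start together were at 9.35 FPKM under Musclin and 5.84 FPKM under vehicle, which is 46.7% and 36.1% of the gene. The modest ratio of the Adar gene total thus combines a ratio near 1 at the upstream start with a higher one at the downstream start. Exons of Chrnb2 on the opposite strand overlap 16.8% of the exon bases of Adar, and Chrnb2 was at 0.232 and 0.329 FPKM. Whether the counting used strand is not stated in the labels.

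In Mavs, both coding transcripts were higher and the transcript annotated as a target of nonsense-mediated decay was lower with Musclin. Nonsense-mediated decay degrades messages with an early stop codon. The coding transcripts ENSMUST00000110199 and ENSMUST00000041362, each encoding 503 residues, were at 7.21 against 5.42 FPKM and 4.29 against 2.29 FPKM. Together they were at 11.5 FPKM under Musclin and 7.71 FPKM under vehicle, an aligned-base ratio of 1.48 (95% interval 1.33 to 1.66). ENSMUST00000130597 was at 4.91 FPKM under Musclin and 12.6 FPKM under vehicle, a ratio of 0.389 (0.341 to 0.442), and the authors' deposited table marks it with a q-value of 3.6e-09. It made up 29.9% of the FPKM of Mavs with Musclin and 62.0% with vehicle. The lower Mavs total in the Musclin library therefore lies in the decay transcript. Over coding transcripts alone the FPKM of all 10 genes was higher with Musclin, while the median log2 ratio of 11300 genes counted that way was -0.02. Aim2, at 0.464 against 0.349 FPKM, is among the 10 although the interval of its gene total spans 1.

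ENSMUST00000130597 holds an added exon of 91 bases that both coding transcripts lack, at chr2:131239452-131239542 (GRCm38, plus strand). Its length is not a multiple of a codon. The exon is shown because the transcript that was lower holds it and those that were higher do not. It need not be the only difference. ENSMUST00000130597 has 2959 bases, against 3057 for ENSMUST00000110199 and 2867 for ENSMUST00000041362. Its other exons each overlap an exon of a coding transcript, but the ends of those exons were not compared. The exon is given below. It is printed with the 2 bases of the next exon that complete the stop codon, which is in capitals and ends a reading frame of 69 residues.
Mavs added exon: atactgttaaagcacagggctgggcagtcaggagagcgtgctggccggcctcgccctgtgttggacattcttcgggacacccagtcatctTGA

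The transcripts of Samhd1 named here differed in their ratios, and those of Tmem173 were all at a higher FPKM with Musclin. ENSMUST00000057725, the main transcript of Samhd1, was at 17.8 FPKM under Musclin and 13.8 FPKM under vehicle. ENSMUST00000139263 was at 5.65 against 5.91 FPKM, an aligned-base ratio of 0.956 (95% interval 0.802 to 1.14), so a difference was not detectable at this depth. A minor transcript, ENSMUST00000109549, was at 1.00 against 0.289 FPKM, a ratio of 3.46 (2.14 to 6.006) on 73 and 21 fragment equivalents. For Tmem173, ENSMUST00000115728 was at 17.4 against 13.6 FPKM, ENSMUST00000235495 at 2.89 against 1.89 FPKM and ENSMUST00000237919 at 2.17 against 1.73 FPKM. None of these is marked in the authors' deposited table.

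Promoters of the 10 genes were searched, where a window was at hand, on both strands for GAAANNGAA, letters shared by the interferon-stimulated response element. The letters were chosen after the sequences had been seen. A longer form with an A after these letters and the letters TTCNNNGAA of the gamma-activated site were searched as well. The longer form occurs in 3.44% of all windows and was found in those of Ddx58 and Ifih1 but in none of Adar, so the Adar match rests on the shorter form. TTCNNNGAA occurs in 8.30% of all windows and was found in those of Samhd1 and the downstream start of Adar. Windows of 300 bases, from 250 before to 50 after a start site, came from RefSeq (GRCm38.p6), where 7 of the 10 genes matched. Zbp1, Dhx58 and Tmem173 had no window and were not searched. GAAANNGAA occurs in 8.56% of all 32851 such windows. The 3 windows with a match are shown with the matched letters, or their complement, in capitals. They are Ddx58 (chr4:40239776-40240075, minus strand), Ifih1 (chr2:62646206-62646505, minus strand) and the downstream start of Adar (chr3:89730468-89730767, plus strand).
Ddx58: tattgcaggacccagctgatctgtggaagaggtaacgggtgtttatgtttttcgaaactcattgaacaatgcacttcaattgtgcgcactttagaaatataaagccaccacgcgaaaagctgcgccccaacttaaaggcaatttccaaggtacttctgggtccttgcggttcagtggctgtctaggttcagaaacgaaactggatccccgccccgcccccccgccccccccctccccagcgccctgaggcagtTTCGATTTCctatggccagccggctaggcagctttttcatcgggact
Ifih1: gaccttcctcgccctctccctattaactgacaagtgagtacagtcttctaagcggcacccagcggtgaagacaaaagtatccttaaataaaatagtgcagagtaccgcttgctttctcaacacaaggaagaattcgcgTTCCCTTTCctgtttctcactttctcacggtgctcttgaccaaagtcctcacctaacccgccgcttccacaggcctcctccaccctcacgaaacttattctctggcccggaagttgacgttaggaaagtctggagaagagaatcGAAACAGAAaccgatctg
Adar downstream start: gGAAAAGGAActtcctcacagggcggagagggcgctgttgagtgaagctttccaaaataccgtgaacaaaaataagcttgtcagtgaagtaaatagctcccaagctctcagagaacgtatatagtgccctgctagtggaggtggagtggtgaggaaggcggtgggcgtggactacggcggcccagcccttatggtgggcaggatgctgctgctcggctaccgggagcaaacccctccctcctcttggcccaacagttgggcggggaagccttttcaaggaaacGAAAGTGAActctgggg

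In the Ddx58 window the match is on the minus strand of the promoter and begins 3 bases past the start site. The Ifih1 window holds a match 32 bases past the start site and another, on the opposite strand, 112 bases before it. The Adar window at the downstream start holds a match 33 bases past the annotated start and another at its far end. In both windows at the upstream Adar start, and in those of Aim2, Mavs, Samhd1 and Trex1, these letters were not found. The Aim2 window has its start site at chr1:173420604. The coding Aim2 transcripts ENSMUST00000147604 and ENSMUST00000166137 begin at 173350879 and 173455354, and those starts were not searched. A match is a description of the letters and was not tested as a binding site.

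Around these genes, a list of 88 further genes of nucleic acid sensing was counted, of which 81 were matched in the table and 69 were at 1 FPKM or more in a library. Of the 69, 6 were at least 2-fold higher with Musclin and none was 2-fold or more lower, a share of 8.70% higher against 1.71% of all genes at that floor. The list was chosen with earlier results of these data known, so this share is a description and not independent support. Their median log2 ratio was 0.20, with 52 above 0.

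**Figure D5:**
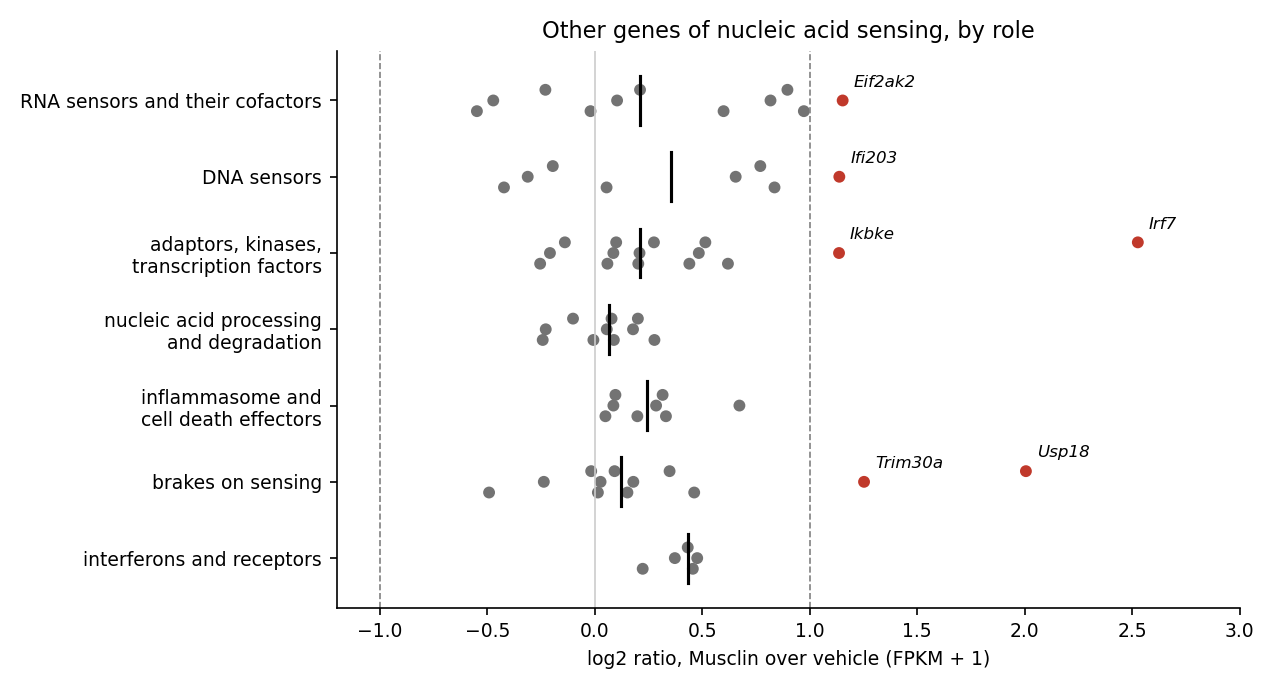
Log2 ratio (Musclin over vehicle, FPKM + 1) of the 69 further genes of nucleic acid sensing at 1 FPKM or more, by role. Red points are the 6 genes past 2-fold, black bars are medians over the genes of a role, and dashed lines stand at 2-fold.

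Among other RNA sensors and their cofactors, 1 of 11 was 2-fold higher on the scale of log2(FPKM + 1). It was Eif2ak2, which encodes the RNA-activated kinase PKR, at 32.4 FPKM under Musclin and 14.04 FPKM under vehicle. Its aligned-base ratio was 2.24 (counting interval 2.10 to 2.40). Ddx60 and Tlr7 had larger aligned-base ratios at lower levels. Ddx60 was at 1.75 against 0.403 FPKM, a ratio of 4.29 (3.17 to 5.87). Tlr7 was at 1.67 against 0.516 FPKM, a ratio of 3.17 (2.24 to 4.48). Their log2 ratios of 0.97 and 0.82 stayed under the 2-fold line because of the added pseudocount. Tlr3, an endosomal RNA receptor gene, was at 9.24 against 4.501 FPKM, and Trim25, a ubiquitin ligase gene that acts on RIG-I, at 12.5 against 7.89 FPKM. Of the 11 log2 ratios 7 lay above 0 and 4 below, the lowest being that of Zcchc3 at 1.04 against 1.98 FPKM, and Zc3hav1 was at 29.3 against 41.0 FPKM. Among other DNA sensors 1 of 8 passed 2-fold, the AIM2-like receptor gene Ifi203 at 8.92 against 3.51 FPKM. Its relative Ifi204 was at 72.1 against 45.4 FPKM, whereas Cgas, the DNA sensor upstream of STING, was at 2.43 against 3.60 FPKM. The AIM2-like genes are close paralogs, and the division of reads among them is uncertain.

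Of 15 adaptors, kinases and transcription factors, 2 were 2-fold higher. Irf7, the interferon-induced transcription factor gene that amplifies interferon production, was at 19.6 FPKM under Musclin and 2.58 FPKM under vehicle, an aligned-base ratio of 7.28 (95% interval 6.04 to 8.83). Ikbke, a kinase gene of the same pathway, was at 13.4 against 5.55 FPKM. Their constitutive relatives were nearer to vehicle, with Irf3 at 16.3 against 15.1 FPKM and Tbk1 at 15.5 against 10.5 FPKM.

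Among genes that restrain sensing, 2 of 12 were 2-fold higher. They were Usp18, whose product limits interferon receptor signalling, at 23.8 against 5.17 FPKM and Trim30a at 18.5 against 7.20 FPKM. The median log2 ratio of the 12 was 0.12, with 9 above 0 and 3 below. The lowest was that of Rnf125, at 3.13 against 4.80 FPKM, an aligned-base ratio of 0.651 (95% interval 0.495 to 0.841). None of 10 genes for nucleic acid processing or degradation passed 2-fold, and their median was 0.07, with 6 log2 ratios above 0 and 4 below. The RNase H2 subunit genes Rnaseh2a and Rnaseh2b were at 6.39 against 6.93 FPKM and 8.36 against 10.1 FPKM, whereas Rnaseh2c was at 7.51 against 6.41 FPKM. None of 8 inflammasome and cell death genes passed 2-fold and all 8 log2 ratios lay above 0, with a median of 0.24, but for Ripk1 (0.05) the aligned-base ratio was 0.896 (95% interval 0.840 to 0.956), below 1. Ripk3, the necroptosis kinase gene downstream of Zbp1, was at 78.8 against 62.5 FPKM and Mlkl, the gene of its effector, at 32.1 against 25.6 FPKM, while the inflammasome adaptor gene Pycard was under the floor at 0.284 against 0.476 FPKM.

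The interferon genes that were matched were at or near 0. Ifna1, Ifna2, Ifna5, Ifnk, Ifnl2 and Ifnl3 were looked for and not matched, so their levels are not known. Ifnb1, Ifna4 and Ifne were listed at 0 in both libraries, and Ifng was at 0.127 FPKM under Musclin and 0.691 FPKM under vehicle, on 3 and 19 fragment equivalents. Of 5 receptor genes at 1 FPKM or more none passed 2-fold, with Ifnar1 at 25.9 against 18.9 FPKM and Ifnar2 at 19.1 against 14.5 FPKM.

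Leukocytes express many of these genes, and markers of leukocytes and other cell types were measured beside them. The summed level of 14 leukocyte markers was 23.0 FPKM under Musclin and 23.1 FPKM under vehicle, and 4 of the 14 were at 0 in at least 1 library. One of these, S100a8, was at 1.495 FPKM under Musclin and listed at 0 with vehicle. The pan-leukocyte gene Ptprc was at 0.383 and 0.644 FPKM and the macrophage gene Fcgr1 at 0 in both, while Lyz2 was at 8.46 and 14.1 FPKM, Cd14 at 6.87 and 2.95 FPKM and Csf1r at 1.61 and 0.532 FPKM. Endothelial markers summed to 4.36 and 7.29 FPKM over 8 genes, myogenic markers to 2.94 and 3.86 FPKM over 6, and adipocyte markers to 129 and 196 FPKM over 5. The part of these cell types in the differences above was not tested. FAP markers summed to 2426 and 2501 FPKM over 10 genes, and 9 of the 10 were at 1 FPKM or more, the exception being Lum. Single FAP markers differed in both directions. Pdgfra was at 87.2 and 79.9 FPKM, but Dcn was at 181 and 64.8 FPKM and Cd34 at 29.7 and 14.5 FPKM, whereas Osr1 was at 15.1 and 34.8 FPKM, Col3a1 at 233 and 391.8 FPKM and Pdgfrb at 181 and 271 FPKM. In bulk RNA, fewer cells of a type and less RNA per cell cannot be told apart. The libraries hold 6.69 and 6.76 gigabases of aligned sequence with Musclin and vehicle.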

How the data were processed

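The authors deposited 1 table with an FPKM value per transcript for each of 2 libraries, per the file headers, together with their own fold (a ratio), log2 fold, p-value and q-value per transcript, also per the file headers, and a significance mark. Not given in the sources used here are the aligner, the build and the test behind these values. StringTie, DESeq2 and edgeR are named without roles in the submitters' processing notes. Of 88029 transcripts found in GENCODE vM21 (GRCm38), 87772 have the same start and end, so coordinates are GRCm38.

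FPKM was summed per gene, and ratios are log2 of (Musclin FPKM + 1)/(vehicle FPKM + 1), which understates differences of low genes. Called higher or lower means 2-fold on that scale. Depth was read from single-exon genes with 1 transcript, where FPKM times length falls in steps of 1 aligned base (73.9% and 74.2% of values whole within 0.1 base). Totals of 149 and 298 bases were the most frequent, and 298 bases, read as 1 pair, make a fragment equivalent (22456538 with Musclin, 22677240 with vehicle). Intervals are 95% exact Clopper-Pearson intervals of the fragment ratio, and cover counting error only. The ratio and interval steps were run on simulated gene counts that held counting error only. That simulation cannot speak to the division of reads among transcripts or to spread between cultures. Python 3.11.15, pandas 2.3.3 and SciPy 1.17.1 were used.

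Members and gene lists were chosen with earlier results of these data known. All members, their transcripts with 5% or more of the gene or with a mark, and further pathway genes past 2-fold are named, with up to 3 others per role, except that further RNA sensor, cell death and interferon genes and the Samhd1 transcript under 5% were added after their values were seen. Any other gene was chosen after its values were seen. Alternatives were other pseudocounts, floors and scalings, coding transcripts alone and aligned bases.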

Additional observations from a re-analysis of the deposited data

How the results depend on the processing

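With 1 library per group, replicates could not be left out and no result has a test. No paired analysis was possible because each group has 1 library. The count of 3 genes 2-fold higher was 2 at a pseudocount of 5 and 4 at a pseudocount of 0.1 or after TPM rescaling, and it was 3 under the other alternatives run. None of the 10 was 2-fold lower under any of them. At a pseudocount of 5 Dhx58 had a log2 ratio of 0.88, and Ifih1 reached 1.10 at a pseudocount of 0.1 and 1.05 after TPM rescaling. Mavs changed direction over protein-coding transcripts alone, with a log2 ratio of 0.52 against -0.30 over all transcripts, because the decay transcript drops out. Aim2, whose interval spans 1, ran from -0.28 to 0.12. The median over the 10 genes was 0.59 and 0.27 at pseudocounts of 0.1 and 5, and 0.34 without Zbp1. Of the further pathway genes, against 6 as reported, 2 were 2-fold higher at a pseudocount of 5, 9 at a pseudocount of 0.1 and 9 after TPM rescaling. The shares of all genes at the floor that were 2-fold higher under these settings were 0.753%, 3.10% and 2.63%. After TPM rescaling 1 further pathway gene, Ifng, was 2-fold lower, as were 2.47% of all genes at the floor. Zbp1 and Ddx58 stayed past 2-fold under every alternative run, with log2 ratios of 2.08 to 3.05 and 1.42 to 1.96. Depth limits Aim2 and Trex1, which rest on under 100 fragment equivalents per library.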

Other observations

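Many transcripts of these genes carry a p-value of 1 in the authors' deposited table, 43 of 63 here against 66357 of all 88702. Among them are transcripts with large differences in FPKM. ENSMUST00000109116 of Zbp1 was at 12.2 FPKM under Musclin and 1.14 FPKM under vehicle, on 212 and 20 fragment equivalents, and has a p-value of 1 in the authors' deposited table. ENSMUST00000127026 of Ddx58, which has no annotated reading frame, was at 3.55 FPKM under Musclin and is listed at 0 with vehicle, on 100 and 0 fragment equivalents, and also has a p-value of 1 in the authors' deposited table. How such p-values arose is not stated in the labels or headers.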
